A study of Mus musculus with 10 samples.

Results

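The genes described here are 33 genes of glucose breakdown and of the response to low oxygen. They were matched on gene symbol to the 31053 genes of the count matrices. The list was chosen with earlier results of these data known, so counts of members beside all genes are descriptions and no test of the list. They cover glucose entry (Slc2a1, Hk1, Hk2), the upper steps of glycolysis (Gpi1, Pfkl, Pfkm, Pfkp, Aldoa, Aldoc, Tpi1), the regulators of phosphofructokinase (Pfkfb3, Pfkfb4), the lower steps (Gapdh, Pgk1, Pgam1, Eno1, Eno2, Pkm), the fate of pyruvate and lactate (Ldha, Ldhb, Pdk1, Slc16a1, Slc16a3), other genes induced by low oxygen (Bnip3, Ndrg1, P4ha1, Adm, Ankrd37, Egln3, Car9, Vegfa) and the gluconeogenic phosphatases Fbp1 and Fbp2. All 33 symbols were found. Aldoa matched 2 gene identifiers, so the list held 34 identifiers, and the second Aldoa identifier (ENSMUSG00000114515), which had 6 unique molecular identifiers (UMIs) in all libraries together, was left untested.

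Glycolysis splits glucose into pyruvate in the cytosol, and lactate dehydrogenase turns pyruvate into lactate when it is not passed to mitochondria. Hypoxia-inducible factors (HIF) are stable when oxygen is low and then bind short sequences near genes for glucose uptake, glycolysis, lactate export and blood vessel growth. Alveolar type 2 (AT2) cells, the surfactant-secreting stem cells of the alveolus, also use lactate as a fuel.

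Single-cell RNA libraries were made from sorted EpCAM+ cells of the distal lung of 8-week-old adult mice in which Sftpc-CreERT2, a tamoxifen-inducible Cre driven by the promoter of the AT2 gene Sftpc, labels AT2 cells and their progeny. In Sftpc-CreERT2;R26R-Confetti mice the RFP+ and YFP+ cells are both wildtype, with 1 library of each colour and no time point in the labels (2 weeks after induction by the study's methods). In Sftpc-CreERT2;Red2Kras mice the RFP+ cells are mutant while their YFP+ neighbours are wildtype, with 2 libraries of each colour at 4 days and 2 at 2 weeks. All groups received the same tamoxifen course of 3 doses of 0.2 mg per gram of body weight. Each library pools lungs of at least 2 mice, so the p-values given here measure the spread between libraries of pooled lungs. The methods count 1 Confetti sample, so its RFP and YFP libraries may share a pool, though the fits treat them as separate. An SD over the 2 Confetti libraries is a spread between colours. In comparisons with Confetti the spread was estimated from the Red2Kras libraries. The wildtype reference of each Red2Kras comparison with Confetti is another mouse line, and the line and the mutation cannot be told apart there.

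The matrices held 42012 barcodes, and 30599 cells without a Ptprc UMI (the pan-leukocyte gene) were used, 1138 to 4306 per library with 7981651 to 69881952 UMIs. The median was 15685 and 13199 UMIs per cell in the 2 weeks RFP libraries and 3251 to 6577 in the others. All 8 AT2 markers were present in every library, with summed levels from 86899 to 219248 CPM (UMIs of a gene scaled to library totals corrected by TMM), lowest in 4 days RFP replicate 2 and both 2 weeks RFP libraries. The 6 markers of damage-associated transient progenitors (DATP), Cldn4 and Krt8 among them, summed to 3064 and 4127 CPM in 2 weeks RFP, 2090 CPM in 4 days RFP replicate 2 and 603 to 1099 CPM elsewhere. A list of 10 immune markers summed to 1178 CPM in 2 weeks YFP replicate 2 and 720.1 CPM in 4 days RFP replicate 2, against 22.5 to 163 CPM in the other libraries, with Ptprc at 0 in all of them by construction. Markers of dissociation and heat stress summed to 3427 to 7394 CPM in 2 weeks RFP, 1664 to 1759 CPM in Confetti and up to 9058 CPM in 2 weeks YFP. Airway secretory markers summed to 343 to 2172 CPM in 2 weeks RFP and to 2177 to 17274 CPM in the other libraries. The part of these shifts in the values of the members was not tested. Xist was counted at 0.240 to 0.433 CPM in replicate 2 of each Red2Kras group and at 105 to 718 CPM elsewhere, and the Y-linked gene Ddx3y had no UMI in either Confetti library and 15.1 to 45.7 CPM in the Red2Kras libraries, so the pools also differ in the sex of the mice. Of 30484 distinct barcodes, 115 occurred in more than 1 library.

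Promoter sequences are shown for 6 members so that the core sequence that HIF binds can be seen where it occurs and where it does not. Each run is the RefSeq window (GRCm38.p6) from 250 bases before to 50 bases after a transcript start, 5′ to 3′ on the strand of the gene, and capitals mark ACGTG or GCGTG on either strand, so that the other strand reads CACGT or CACGC. Slc2a1, Pgk1, Pgam1, Ldha and Gpi1 were all counted above every other library in mutant cells at 2 weeks, and Gpi1 has no match in its window, while Ldhb, the lactate dehydrogenase isozyme with low levels there, has 1. The windows are Slc2a1 at chr4:119108495-119108794 (+), Pgk1 at chrX:106186850-106187149 (+), Pgam1 at chr19:41911621-41911920 (+), Ldha at chr7:46845554-46845853 (+), Ldhb at chr6:142507908-142508207 (-) and Gpi1 at chr7:34230287-34230586 (-).
Slc2a1: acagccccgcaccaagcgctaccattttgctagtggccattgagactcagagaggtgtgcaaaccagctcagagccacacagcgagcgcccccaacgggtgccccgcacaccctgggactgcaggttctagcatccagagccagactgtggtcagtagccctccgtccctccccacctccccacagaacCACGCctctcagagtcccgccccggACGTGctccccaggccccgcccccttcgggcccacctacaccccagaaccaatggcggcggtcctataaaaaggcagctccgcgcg
Pgk1: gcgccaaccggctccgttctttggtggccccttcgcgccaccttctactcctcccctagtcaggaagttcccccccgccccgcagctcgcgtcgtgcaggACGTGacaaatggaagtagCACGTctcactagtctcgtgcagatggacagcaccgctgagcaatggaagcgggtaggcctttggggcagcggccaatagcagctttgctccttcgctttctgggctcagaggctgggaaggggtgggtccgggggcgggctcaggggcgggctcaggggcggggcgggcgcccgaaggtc
Pgam1: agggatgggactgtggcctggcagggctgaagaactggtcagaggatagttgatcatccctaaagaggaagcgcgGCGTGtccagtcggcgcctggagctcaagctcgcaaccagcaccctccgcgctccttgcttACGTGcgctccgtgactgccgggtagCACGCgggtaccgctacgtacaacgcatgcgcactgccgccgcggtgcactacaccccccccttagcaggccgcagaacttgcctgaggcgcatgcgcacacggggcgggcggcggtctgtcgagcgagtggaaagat
Ldha: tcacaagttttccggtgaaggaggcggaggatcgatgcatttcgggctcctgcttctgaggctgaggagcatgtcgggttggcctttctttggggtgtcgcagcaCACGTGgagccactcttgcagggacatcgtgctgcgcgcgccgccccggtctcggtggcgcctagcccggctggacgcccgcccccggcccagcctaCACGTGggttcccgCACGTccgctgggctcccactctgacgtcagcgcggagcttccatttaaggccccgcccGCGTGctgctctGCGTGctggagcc
Ldhb: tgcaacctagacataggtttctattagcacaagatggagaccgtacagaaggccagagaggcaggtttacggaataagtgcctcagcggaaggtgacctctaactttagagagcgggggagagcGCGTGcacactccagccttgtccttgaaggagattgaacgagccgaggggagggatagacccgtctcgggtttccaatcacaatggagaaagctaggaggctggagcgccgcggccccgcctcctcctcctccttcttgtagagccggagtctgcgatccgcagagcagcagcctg
Gpi1: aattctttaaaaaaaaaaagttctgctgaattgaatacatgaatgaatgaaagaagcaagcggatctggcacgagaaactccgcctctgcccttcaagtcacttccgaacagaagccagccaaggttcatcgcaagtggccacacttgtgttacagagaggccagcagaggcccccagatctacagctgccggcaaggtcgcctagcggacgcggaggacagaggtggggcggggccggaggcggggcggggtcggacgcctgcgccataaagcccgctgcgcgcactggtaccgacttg
These windows hold 2 matches in Slc2a1, 2 in Pgk1, 3 in Pgam1, 7 in Ldha, 1 in Ldhb and 0 in Gpi1. Each CACGTG counts once per strand, and Ldha has 2 of them. Ldha has another RefSeq start with 2 matches in its window. Among members not shown, Tpi1, also above every other library at 2 weeks, has 0 matches, while Bnip3, which was low in mutant cells, and Slc16a1, which was not above the other libraries, have 5 each. Over the members, 46 windows of 32 genes were in the table, and 36 of them held at least 1 match, which is 78.3%. The share was 59.5% of 14253 windows of tested genes and 43.8% of 32851 windows in all. ACGTG alone was in 52.2% of member windows and 24.5% of windows of tested genes, and GCGTG alone in 54.3% and 47.9%. A match is a description of the sequence, and no binding was measured.

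The first comparison asks how mutant cells at 2 weeks differ from cells of lungs that hold no mutant cells. In the 2 weeks RFP libraries 12 of 33 members were counted above every one of the other 8 libraries: Slc2a1, Gpi1, Tpi1, Pfkfb3, Gapdh, Pgk1, Pgam1, Eno1, Pkm, Ldha, Car9 and Fbp2. Of all 14856 genes tested, 12.3% had that order. Only Eno2, a neuronal enolase with 62 UMIs in all, lay below the other 8 libraries, an order that 7.67% of the tested genes had. The median log2 fold change of the members against Confetti was 0.92, beside 0.02 over all tested genes, and 23 of 33 fitted values were positive. The sums of stress markers and of airway secretory markers, given above, also differed between 2 weeks RFP and Confetti. The member median was 0.55 without 2 weeks RFP replicate 2, where 10 members were higher at an unadjusted p under 0.05 (7.95% of all genes), and 1.19 without replicate 1.

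None of the members passed the adjusted threshold of 0.05 in that comparison with edgeR, in which 142 genes (0.956%) did. At an unadjusted p under 0.05 edgeR gave 15 members higher, beside 15.9% of all genes, and 1 member (Bnip3) lower, beside 12.5% of all genes. DESeq2 called 11 members, all higher, beside 12% of all genes: Slc2a1, Gpi1, Tpi1, Pfkfb3, Gapdh, Pgk1, Pgam1, Eno1, Pkm, Ldha and Fbp2. Values below are therefore given as levels, with edgeR's fold changes as estimates that did not pass adjustment.

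**Figure D1:**
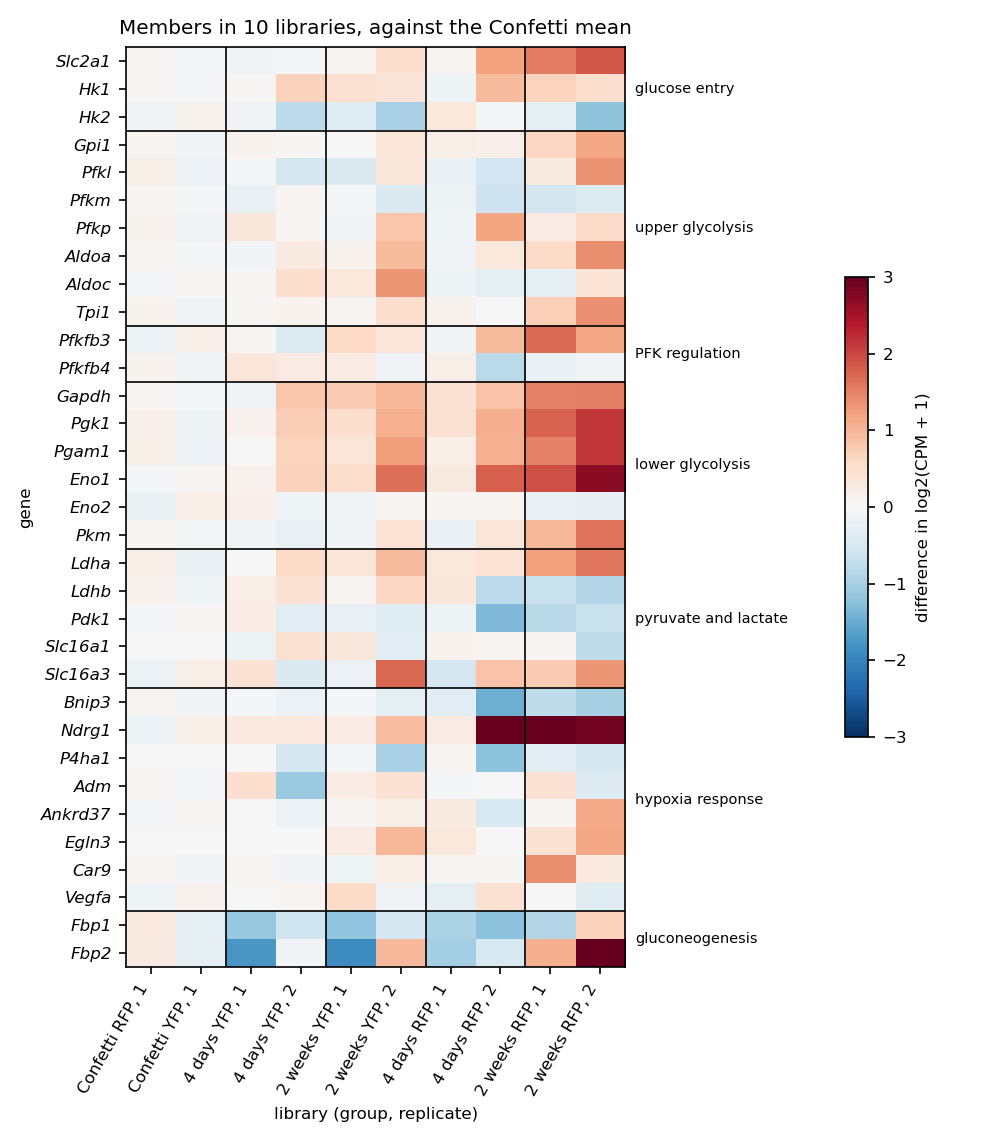
Heat map of the 33 members (rows, grouped by role) in the 10 libraries (columns), coloured by the difference in log2(CPM + 1) from the mean of both Confetti libraries. The scale ends at 3 and -3. The 2 weeks RFP libraries are red over most of the lower glycolytic steps, and Ndrg1 is high in them and in 4 days RFP replicate 2.

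Slc2a1, which encodes the glucose transporter GLUT1 (chr4:119108711-119137983, ENSMUSG00000028645), was at 23.6 and 30.1 CPM in the 2 weeks RFP libraries. It was at 7.77 and 7.29 CPM in Confetti RFP and YFP, 8.07 and 18.7 CPM in 4 days RFP, 7.12 and 7.33 CPM in 4 days YFP and 8.08 and 10.9 CPM in 2 weeks YFP. Both 2 weeks RFP values lie above all others, and 4 days RFP replicate 2 is the next. The mean was 26.9 ± 4.63 CPM at 2 weeks (SD, n = 2) against 7.53 ± 0.334 CPM in Confetti (SD between the 2 colours). The log2 fold change was 1.83 ± 0.41 (SE; adjusted p = 0.0659 in edgeR, 0.00335 to 0.271 over the alternatives). The hexokinases that trap glucose as its phosphate did not follow this order: Hk2 was at 52.0 and 27.3 CPM in 2 weeks RFP and from 32.2 to 79.7 CPM in the rest, and Hk1 at 27.6 and 24.9 CPM against 15.3 to 33.9 CPM.

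Among the upper steps, Gpi1, the phosphoglucose isomerase, was at 109.6 and 160.4 CPM in 2 weeks RFP and 67.5 to 92.8 CPM in the other libraries. Tpi1, the triosephosphate isomerase, was at 217 and 342 CPM against 122 to 185 CPM. Neither set of values overlaps. Aldoa, the main aldolase outside liver and brain, was at 386 and 688 CPM in 2 weeks RFP, but 2 weeks YFP replicate 2 reached 502 CPM, so its groups overlap. The 3 phosphofructokinase genes overlapped as well: Pfkl was at 28.3 and 61.1 CPM against 15.4 to 30.2 CPM, Pfkp at 6.04 and 7.78 CPM against 4.37 to 12.4 CPM, and Pfkm at 2.45 and 2.77 CPM against 2.28 to 4.27 CPM. With cells of 2 or more UMIs of the immune genes Tyrobp, Laptm5 and Coro1a left out, Pfkp kept 50.1% of its level in 4 days RFP replicate 2, its highest library, and 36.1% in 2 weeks YFP replicate 2. Pfkfb3, whose product makes the activator of phosphofructokinase, was at 8.08 and 5.23 CPM in 2 weeks RFP and at 1.08 to 4.33 CPM elsewhere. The estimate was 1.91 ± 0.52 on the log2 scale (SE; adjusted p = 0.0850 in edgeR, 0.0421 to 0.264 over the alternatives). Its relative Pfkfb4 was at 29.4 and 31.8 CPM, inside the range of 18.9 to 44.2 CPM of the other libraries.

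Of the role groups, the lower steps of glycolysis had the highest median log2 fold change, 1.68 over the 6 members. Of these, 5 were higher at an unadjusted p under 0.05 in edgeR, beside 15.9% of all genes, and none passed adjustment. Single members of other groups had higher values than any of the 6, with Ndrg1 and Fbp2 by their estimates and Egln3, which had no UMI in Confetti, by a lower bound of 8.61-fold. Eno2 had a negative estimate. Pgk1, the first ATP-forming enzyme of the pathway (chrX:106187100-106203699, ENSMUSG00000062070), was at 153 and 194 CPM in 2 weeks RFP. It was at 49.0 and 39.0 CPM in Confetti, 60.8 and 94.5 CPM in 4 days RFP, 48.0 and 73.3 CPM in 4 days YFP and 62.7 and 92.9 CPM in 2 weeks YFP. The 2 weeks RFP values lie apart, and Confetti holds the lowest value. The log2 fold change was 1.99 ± 0.35 (SE; adjusted p = 0.0527 in edgeR), and Pgk1 passed under 7 of 23 alternatives, with adjusted p from 3.33e-05 to 0.255.

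Eno1, the main enolase (chr4:150236721-150248879, ENSMUSG00000063524), was at 88.9 and 152 CPM in 2 weeks RFP and 21.8 and 23.2 CPM in Confetti. The estimate was 2.42 ± 0.61 on the log2 scale (SE; adjusted p = 0.0735 in edgeR, 0.00102 to 0.297 over the alternatives). It was at 80.2 CPM in 4 days RFP replicate 2 and 72.9 CPM in 2 weeks YFP replicate 2, and at 24.7 to 37.1 CPM in the other 4 Red2Kras libraries. Those high libraries are the ones with the highest immune marker sums, and with the cells with immune UMIs left out Eno1 kept 96.1% and 84.3% of its level in them. Reads of Eno1 can be shared with the near-identical copy Eno1b.

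Gapdh, which makes the first NADH of the pathway, was at 1287 and 1314 CPM in 2 weeks RFP, at 472 and 445 CPM in Confetti and at 428 to 908 CPM in the other Red2Kras libraries. Pgam1, the phosphoglycerate mutase, was at 153 and 237 CPM, at 60.2 and 47.7 CPM in Confetti and at 52.9 to 130.1 CPM in the rest. Pkm, the pyruvate kinase of most tissues, was at 271 and 420.1 CPM, at 142 and 129 CPM in Confetti and at 115 to 181 CPM in the rest. None of these 3 sets overlap. The log2 fold changes against Confetti were 1.50 ± 0.37 for Gapdh, 1.86 ± 0.46 for Pgam1 and 1.35 ± 0.33 for Pkm (SE). Gapdh has many processed pseudogenes, so its counts could be split by the alignment.

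**Figure D2:**
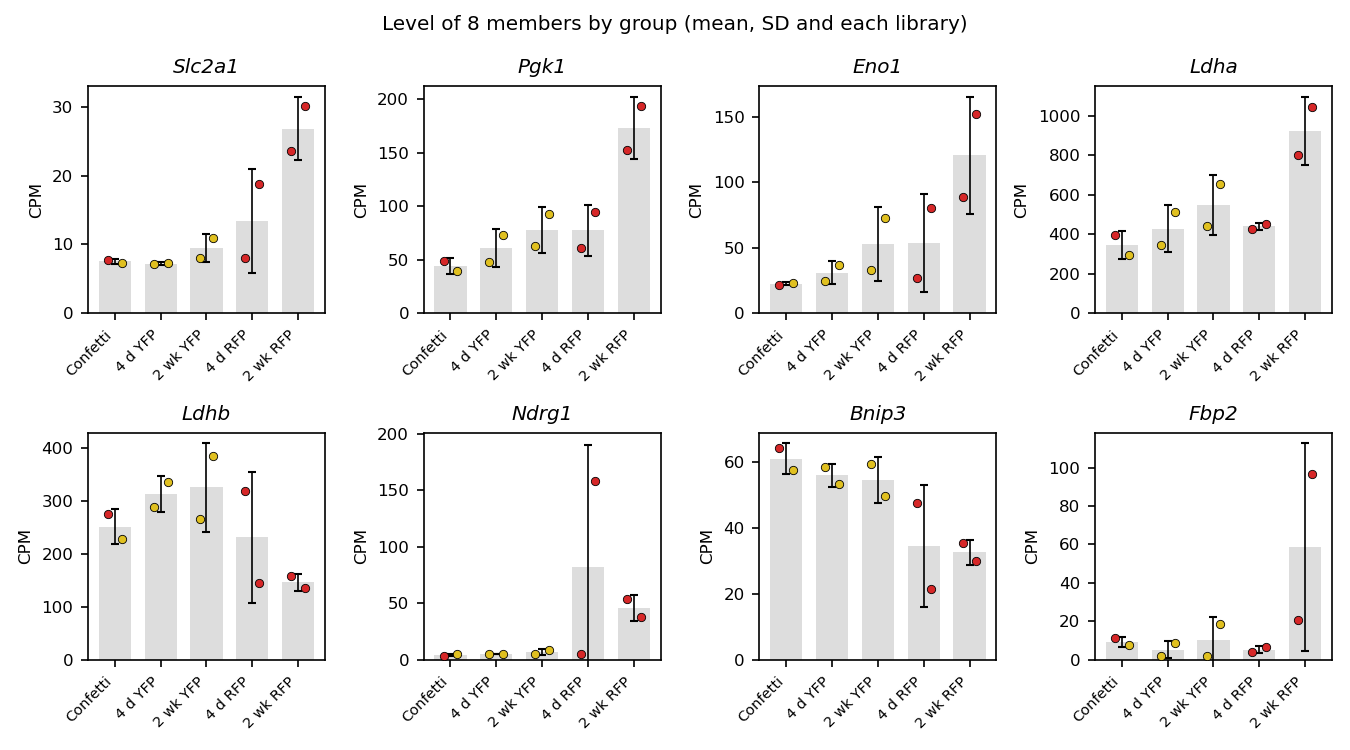
Levels in CPM of 8 members, with a grey bar for the mean of each group of 2 libraries, a black line for the SD and a point for each library, red for RFP and yellow for YFP. Slc2a1, Pgk1, Eno1 and Ldha have their highest points in 2 weeks RFP, Ldhb and Bnip3 are low in 2 weeks RFP and in 4 days RFP replicate 2, and Ndrg1 splits the 4 days RFP libraries at 5.18 and 159 CPM.

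The lactate dehydrogenase isozymes stood in opposite order. Ldha, whose product favours lactate formation (chr7:46841475-46855627, ENSMUSG00000063229), was at 802 and 1047 CPM in 2 weeks RFP, 394 and 295 CPM in Confetti, 427 and 452 CPM in 4 days RFP, 346 and 512 CPM in 4 days YFP and 439.5 and 657 CPM in 2 weeks YFP. Ldhb, whose product favours the return of lactate to pyruvate (chr6:142490249-142507957, ENSMUSG00000030246), was at 158 and 135 CPM in 2 weeks RFP and 144 CPM in 4 days RFP replicate 2, against 228 to 384 CPM in the other 7 libraries. The 3 low Ldhb libraries are the 3 with the lowest AT2 marker sums. Counted per cell rather than as CPM, Ldhb was at 2.75 and 1.88 UMIs in 2 weeks RFP and from 0.840 to 2.35 UMIs in the other libraries, lowest in 4 days RFP replicate 2. Ldha was at 14.0 and 14.6 UMIs per cell in 2 weeks RFP and from 1.15 to 4.01 elsewhere.

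Ldha made up 83.6% and 88.6% of Ldha and Ldhb UMIs in the 2 weeks RFP libraries and 75.9% in 4 days RFP replicate 2 (exact 95% intervals of 83.3% to 83.8%, 88.3% to 88.9% and 74.7% to 77.0%, for counting error only). It made up 57.3% in 4 days RFP replicate 1, 54.6% to 63.1% in the 4 YFP libraries and 58.9% and 56.4% in Confetti. The mean was 76.3 ± 13.7% in RFP and 60.1 ± 3.85% in YFP (SD, n = 4), higher in RFP in 13 of 16 pairs of libraries. The difference of 16.3 percentage points had p = 0.114 in a two-sided exact permutation test (adjusted p = 0.343 over 3 isozyme shares), where 4 against 4 libraries cannot go below 0.0286. The Hk2 share of hexokinase UMIs (66.5% in RFP, 65.1% in YFP, exact permutation p = 0.886) and the Pfkp share of phosphofructokinase UMIs (21.0% and 20.1%, exact permutation p = 1) did not pass, and both differences turned sign with all cells past the quality filter. The Pfkp share was 41.2% in 4 days RFP replicate 2, and 22.4% in 2 weeks YFP replicate 2, the highest of the YFP libraries. These are the libraries whose Pfkp level without the cells with immune UMIs is given above. Without 4 days RFP replicate 2 the Pfkp difference was -5.90 points (exact permutation p = 0.0286, adjusted p = 0.0857 over the 3 shares).

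Pyruvate dehydrogenase kinase Pdk1, which holds pyruvate back from mitochondria, was at 5.60 and 6.43 CPM in 2 weeks RFP and 3.68 CPM in 4 days RFP replicate 2, against 8.06 to 12.6 CPM in the other 7 libraries. The lactate transporter Slc16a1 was at 38.4 and 21.2 CPM in 2 weeks RFP, and the others ranged from 28.6 to 50.5 CPM. The lactate exporter Slc16a3 was at 2.38 and 4.01 CPM in 2 weeks RFP but at 5.61 CPM in 2 weeks YFP replicate 2, where leaving out the cells with immune UMIs kept 47.3% of its level. The counts of Slc16a3, 480 UMIs in all, do not separate the groups.

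The genes of the oxygen response did not share one direction. Ndrg1, a stress- and hypoxia-induced gene (chr15:66929318-66969640, ENSMUSG00000005125), was at 54.1 and 37.9 CPM in 2 weeks RFP, 5.18 and 159 CPM in 4 days RFP, 3.62 and 4.86 CPM in Confetti, 5.34 and 5.40 CPM in 4 days YFP and 5.13 and 8.92 CPM in 2 weeks YFP. It was high in 3 of 4 mutant libraries and low in 4 days RFP replicate 1. The log2 fold change against Confetti at 2 weeks was 3.45 ± 1.26 (SE; adjusted p = 0.133 in edgeR, 0.0256 to 0.342 over the alternatives). Bnip3, a receptor for mitophagy, was at 35.2 and 29.9 CPM in 2 weeks RFP and 47.6 and 21.5 CPM in 4 days RFP, below all 4 YFP libraries (49.5 to 59.3 CPM) and both Confetti libraries (64.2 and 57.6 CPM). Its log2 fold change at 2 weeks was -0.90 ± 0.36 (SE; adjusted p = 0.154 in edgeR, 0.0630 to 0.448 over the alternatives).

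P4ha1, a subunit of collagen prolyl hydroxylase, was at 47.9 and 41.5 CPM in 2 weeks RFP and 25.1 to 64.1 CPM elsewhere, and Vegfa, the endothelial growth factor, was at 117 and 91.7 CPM against 98.1 to 177 CPM, so both overlapped. Ankrd37 was at 13.7 and 30.3 CPM against 9.43 to 16.2 CPM, with 1 library apart. Car9, a carbonic anhydrase of the cell surface, was at 2.95 and 0.839 CPM against 0.388 to 0.719 CPM, from 306 UMIs in all. Egln3, an oxygen-sensing prolyl hydroxylase that HIF induces, had 73 of its 90 UMIs in 2 weeks RFP (0.349 and 1.22 CPM) and 0 in Confetti, at least 8.61-fold higher against a floor of 3 UMIs over both Confetti libraries. Its groups overlapped all the same, since 2 weeks YFP replicate 2 was at 1.01 CPM. Adm, which encodes adrenomedullin, was at 2.25 and 0.864 CPM, and the range elsewhere was 0.120 to 2.46 CPM.

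Of the gluconeogenic phosphatases, Fbp2 was at 20.4 and 96.8 CPM in 2 weeks RFP and at 1.75 to 18.7 CPM in the other libraries, so replicate 2 carried most of it (log2 fold change of 2.69 ± 1.14, SE; adjusted p = 0.172 in edgeR, 0.0422 to 0.671 over the alternatives). Fbp1 was at 1.12 and 5.23 CPM, and the others ranged from 0.650 to 3.73 CPM. Aldoc, a minor aldolase, was at 5.83 and 10.0 CPM in 2 weeks RFP and reached its highest value of 19.7 CPM in 2 weeks YFP replicate 2.

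The 2 weeks RFP cells were the most deeply counted. With every cell thinned to 2000 UMIs, the median log2 fold change of the 31 members then tested was 0.77, and the estimates were 1.76 for Pgk1, 1.80 for Slc2a1, 2.18 for Eno1 and 1.23 for Ldha. Leaving out cells with immune UMIs gave a median of 0.92. The level of an RNA in summed cells does not tell more RNA per cell from more cells that hold it.

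**Figure D3:**
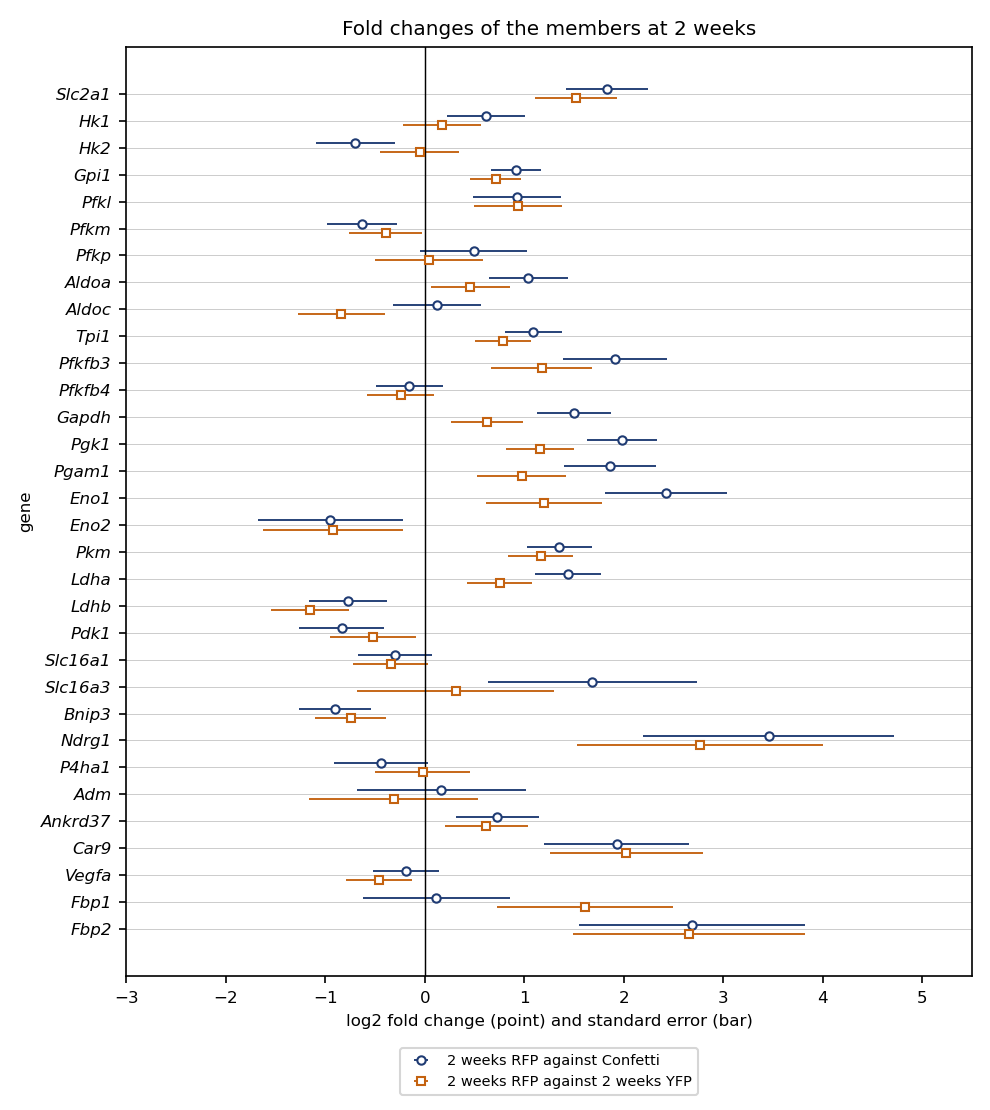
Estimated log2 fold change of each member (points) with its standard error (bars) for 2 weeks RFP against Confetti (blue circles) and against 2 weeks YFP (orange squares). Egln3, with no UMI in Confetti, is left out. All points are open because no member passed the adjusted threshold. Slc2a1, Pgk1, Pgam1, Eno1, Gapdh, Pkm and Ldha lie right of 0 in both, and Ldhb and Bnip3 lie left of it.

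Mutant cells were next set against wildtype neighbours from lungs of the same mouse line. Both comparisons above and here use the same 2 weeks RFP libraries. At 2 weeks edgeR called 0 members and 1 gene in all (0.00673%), and DESeq2 called 0 members and 2% of all genes. At an unadjusted p under 0.05 edgeR gave 6 members higher, beside 8.41% of all genes, and 1 lower, beside 6.62%. They were Slc2a1 (log2 fold change of 1.52 ± 0.41), Pkm (1.16 ± 0.32), Pgk1 (1.16 ± 0.34), Tpi1 (0.78 ± 0.28), Gpi1 (0.71 ± 0.26) and Car9 (2.03 ± 0.77) higher and Ldhb (-1.15 ± 0.39) lower in RFP (SE). The median over the members was 0.62, beside -0.01 over all genes. At 4 days edgeR called 0 members among 0% of all genes, DESeq2 called 0 members and 0.263% of all genes, and of the members only Ndrg1 had an unadjusted p under 0.05 (3.92 ± 1.28, SE; 2.32% of all genes were higher at that threshold), which came from replicate 2 alone: without it the estimate was -0.053.

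Over both times, 4 RFP against 4 YFP libraries, edgeR called 0 of 31 members tested and 0% of all 13498 genes, with Eno2 and Egln3 removed by the filter on low counts. At an unadjusted p under 0.05 it gave 6 members higher (8.88% of all genes) and 3 lower (8.05% of all genes). The higher ones were Ndrg1 (log2 fold change of 3.31 ± 0.87), Slc2a1 (1.17 ± 0.29), Pfkfb3 (1.06 ± 0.36), Eno1 (0.97 ± 0.40), Pgk1 (0.73 ± 0.26) and Pkm (0.69 ± 0.26), and the lower ones Ldhb (-0.82 ± 0.29), Bnip3 (-0.74 ± 0.24) and Aldoc (-0.73 ± 0.30), each with its SE. These counts depend on single libraries: 3 members were higher without 4 days RFP replicate 2 (6.62% of all genes) or without 2 weeks YFP replicate 1 (5.55%), and 10 without 4 days YFP replicate 2 (9.2%). Only 1 was lower without 4 days RFP replicate 2 (7.03%), 2 weeks RFP replicate 1 (4.39%) or 2 weeks YFP replicate 2 (5.24%). Only Bnip3 lay below in all 4 RFP libraries against all 4 YFP libraries, an order that 3.50% of the genes had, and no member lay above. Set against the YFP library of the same time and replicate number, which the labels do not tie to the same mice, RFP was higher in 4 of 4 for 6 members (Slc2a1, Gpi1, Gapdh, Pgk1, Pgam1 and Eno1), beside 15.5% of all genes, and lower in 4 of 4 for 3 (Aldoc, Pdk1 and Bnip3), beside 15.5%. DESeq2 called Ndrg1 and Slc2a1, both higher, beside 5.22% of all genes in either direction.

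No member passed the adjusted threshold between the times. In mutant cells edgeR called 0 members and 0.0135% of all genes between 2 weeks and 4 days, with 11 members at an unadjusted p under 0.05, all higher at 2 weeks, beside 6.11% of all genes. Among them were Pkm at 1.25 ± 0.33, Ldha at 1.07 ± 0.33 and Fbp2 at 3.53 ± 1.21 (log2 fold change and SE), and DESeq2 called Fbp2 alone, beside 0.613% of all genes. In wildtype neighbours between the times edgeR called 0 members and 0% of genes, with 0 members unadjusted (1.09% of all genes) and 0 in DESeq2 (0.0337%). For the difference of the colour effect between times edgeR again called 0 members and 0% of genes, with 0 members unadjusted (1.83% of all genes) and 0 in DESeq2 (0%).

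Against Confetti, 4 days RFP gave 0 members called by edgeR (0% of genes) and by DESeq2 (0.828%), with Ndrg1 (4.28 ± 1.30) and Pgk1 (0.82 ± 0.34, log2 fold change and SE) higher at an unadjusted p under 0.05, beside 4.16% of all genes. The Ndrg1 estimate rests on replicate 2 and was 0.30 without it. The 2 weeks YFP libraries gave 0 in both tools (0% of genes in edgeR, 0.323% in DESeq2), with Pgk1 (0.83 ± 0.34) and Gapdh (0.88 ± 0.37) higher unadjusted, beside 2.93% of all genes. The 4 days YFP libraries gave 0 in both (0% of genes in edgeR, 0.0606% in DESeq2), with 0 unadjusted, beside 1.49% of all genes. Times differ from Confetti in the 4 days comparisons.

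The 2 libraries of a group often lay as far apart as groups did. In all 4 Red2Kras groups the library nearly without Xist was higher than its partner for 8 members (Slc2a1, Aldoa, Gapdh, Pgk1, Pgam1, Eno1, Ldha and Fbp2), beside 13.8% of all genes, and lower for 3 (Hk2, Bnip3 and P4ha1), beside 16.9%. With the cells with immune UMIs left out, the 8 higher members kept 84.3% to 108% of their level in 4 days RFP replicate 2 and 2 weeks YFP replicate 2. The part of sex, of preparation day and of the immune markers in the difference between partners was not tested.

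Within the mutant libraries, cells with a UMI of Cldn4, a claudin that marks AT2 cells leaving their state during repair, were set against cells without one, after thinning each cell to 2000 UMIs. The 4 RFP libraries gave 65 to 708 Cldn4-positive cells (1608 in all) and 1303 to 3726 Cldn4-negative cells (10668 in all), summed per state and compared with library as a block. A cell without a UMI is not shown to lack Cldn4. Of 27 members tested, 6 were higher in Cldn4-positive cells (9.6% of all 10326 genes were) and 5 were lower (11% of all genes were), at an adjusted p under 0.05 in edgeR. The median log2 fold change was 0.23 over the members, and the median of all genes was at 0 to 2 decimals.

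The higher members were Ndrg1, Slc2a1, Pkm, Eno1, Vegfa and Pfkfb3. Ndrg1 was at 64.6, 457, 167 and 99.6 CPM in Cldn4-positive cells of 4 days RFP replicates 1 and 2 and 2 weeks RFP replicates 1 and 2, and at 3.30, 107, 36.6 and 21.6 CPM in the Cldn4-negative cells. It was higher in every library, also in the 4 days library that held little Ndrg1 as a whole (log2 fold change of 2.38 ± 0.26, SE; adjusted p = 0.000203 in edgeR, at most 0.0141 over the alternatives). Slc2a1 was at 14.4, 36.6, 48.2 and 48.7 CPM against 8.39, 16.3, 18.5 and 25.5 CPM, also higher in 4 of 4 (1.13 ± 0.21; adjusted p = 0.00359 in edgeR, at most 0.0833).

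Pkm was at 201, 281, 483 and 616 CPM against 124, 159, 208 and 341 CPM (log2 fold change of 0.91 ± 0.15, SE; adjusted p = 0.00184 in edgeR, at most 0.0563 over the alternatives). Eno1 was at 79.0, 103, 138 and 221 CPM against 27.3, 77.3, 69.1 and 131 CPM (0.85 ± 0.19). Vegfa, which did not separate the sorted groups, was at 201, 350.4, 194 and 125 CPM against 111, 156, 123 and 98.5 CPM (0.75 ± 0.17). Pfkfb3 was at a mean of 11.2 against 4.33 CPM (1.25 ± 0.33). All 4 were higher in 4 of 4 libraries, but in Cldn4-positive cells of 4 days RFP replicate 1 Pfkfb3 rests on 1 UMI, Slc2a1 on 2 and Ndrg1 on 9.

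Ldhb was the member with the most negative estimate. It was at 136, 19.2, 59.2 and 48.0 CPM in Cldn4-positive cells and at 365, 195, 191 and 184 CPM in Cldn4-negative cells of the same libraries, lower in 4 of 4 (log2 fold change of -2.02 ± 0.25, SE; adjusted p = 0.000380 in edgeR, at most 0.0184 over the alternatives). Ldha stood at 496, 310.3, 788 and 1038 CPM against 443, 523, 743 and 987 CPM, so its levels in both states overlapped and it did not pass. The other lower members were Slc16a1 (21.4 against 40.5 CPM on average, log2 fold change of -1.03 ± 0.22), P4ha1 (28.6 against 50.7 CPM, -0.79 ± 0.20), Pfkfb4 (-1.11 ± 0.31) and Aldoc (4.54 against 8.75 CPM, -1.23 ± 0.40), the first 3 in 4 of 4 libraries and Aldoc in 3, with 1 to 6 Aldoc UMIs per library in Cldn4-positive cells. The phosphofructokinase regulators Pfkfb3 and Pfkfb4 thus stood in opposite directions.

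These calls rest on few libraries. Without 2 weeks RFP replicate 1 only Ldhb and Ndrg1 of 26 members passed, beside 7.77% of all genes in either direction. Without replicate 2 only these and Pfkfb3, Pkm, Slc2a1 and Vegfa passed, beside 9.28% of all genes, where the fit with all 4 libraries called 20.6%. Markers moved with the state. DATP markers, which include Cldn4, summed to 4323 to 8945 CPM in Cldn4-positive and 938 to 2436 CPM in Cldn4-negative cells. AT2 markers summed to 9082 to 82454 CPM in Cldn4-positive and 117697 to 209987 CPM in Cldn4-negative cells, airway secretory markers to 54.0 to 908 CPM against 315 to 6606 CPM, and immune markers to 7.18 to 31.4 CPM against 40.7 to 1094 CPM. Markers of primed AT2 cells were lower in 4 of 4 libraries (445 to 2329 against 3412 to 8945 CPM), as were the endothelial and ciliated lists, and the list around Cd177 was higher in 4 of 4 (86.2 to 445 against 6.44 to 134 CPM). Cycling markers were lower in 3 of 4 (40.4 to 159 against 149 to 346 CPM). The part of these shifts in the values of the members was not tested.

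**Figure D4:**
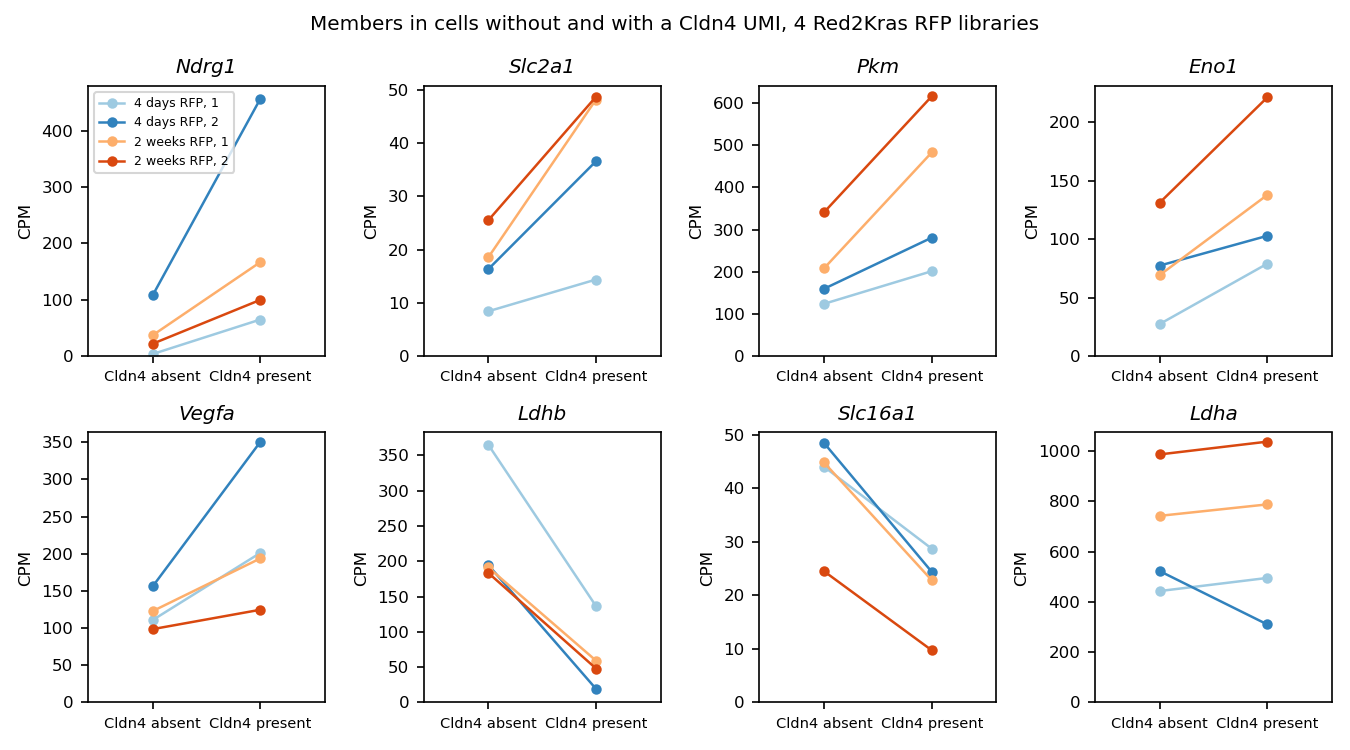
Levels in CPM of 8 members in cells without and with a Cldn4 UMI, after thinning, with 1 line for each of the 4 Red2Kras RFP libraries. Ndrg1, Slc2a1, Pkm, Eno1 and Vegfa climb in every library, Ldhb and Slc16a1 drop in every library, and Ldha stays near its level except in 4 days RFP replicate 2.

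Cells with a UMI of Mki67 or Top2a, which mark dividing cells, were compared with all others in the 8 libraries that held at least 50 such cells after thinning (1505 cycling and 26016 other cells, without 4 days YFP replicate 1 and 2 weeks YFP replicate 2). Of 27 members tested, 11 were lower in cycling cells (12.5% of all 11238 genes were) and 1 was higher (10.3% of all genes were), at an adjusted p under 0.05 in edgeR. The median log2 fold change was -0.54 over the members and -0.10 over all genes.

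All 5 members of the oxygen response that passed the count filter were lower. Ndrg1 averaged 4.50 CPM in cycling and 39.7 CPM in other cells (log2 fold change of -2.30 ± 0.34, SE; adjusted p = 5.2e-06 in edgeR), lower in 7 of 8 libraries. In 4 days RFP replicate 2 it stood at 5.21 against 186 CPM, and without that library the means were 4.40 and 18.8 CPM and the estimate -1.85. In 5 libraries the other cells were at only 3.89 to 5.74 CPM. Of the 25 Ndrg1 UMIs in cycling cells, 20 came from 2 weeks RFP replicate 1, without which the estimate was -3.39. Bnip3 averaged 31.3 against 51.3 CPM (-0.78 ± 0.15), lower in 8 of 8 libraries. P4ha1 (-0.83 ± 0.17), Vegfa (-0.56 ± 0.12) and Ankrd37 (-1.02 ± 0.25) were lower in 7 of 8 libraries each.

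Aldoa had the smallest adjusted p of the members (3.6e-09 in edgeR, at most 6.77e-06 over the alternatives), with 178 CPM in cycling and 382 CPM in other cells on average, lower in 8 of 8 libraries (log2 fold change of -1.19 ± 0.11, SE). The values ranged from 93.9 to 491 CPM in cycling and from 279 to 733 CPM in other cells. The other lower members were Pfkl (-0.71 ± 0.18), Hk1 (-0.59 ± 0.19), Hk2 (-0.40 ± 0.13), Aldoc (-1.15 ± 0.39) and Ldhb (-0.35 ± 0.09). With each of the 8 libraries left out in turn, Hk1 passed in 5, Hk2 in 4 and Aldoc in 4 of 8 fits, and the other lower members passed in all 8. Pgk1 alone was higher, at 109 against 89.1 CPM, in 7 of 8 libraries (0.36 ± 0.12; adjusted p = 0.0351 in edgeR, up to 0.164 over the alternatives), and passed in 3 of 8 fits with a library left out. Gapdh (869 against 822 CPM), Ldha (527 against 557 CPM), Eno1 (58.2 against 59.5 CPM) and Tpi1 (194 against 179.7 CPM) did not pass. Immune markers were at 11.5 to 885 CPM in cycling and 41.2 to 884 CPM in other cells, and AT2 markers at 90570 to 146456 CPM against 97607 to 236224 CPM, lower in cycling cells in 8 of 8 libraries. Airway secretory markers were at 78.1 to 826 CPM in cycling and 292 to 5674 CPM in other cells, lower in 7 of 8 libraries. Markers of dissociation and heat stress were lower in 8 of 8 (1186 to 7588 against 1723 to 10212 CPM), as were AT1 markers (755 to 2597 against 839 to 3418 CPM) and the list around Cd177, and primed AT2 markers were lower in 7 of 8. Erythroid markers (0 to 328 against 0.425 to 593 CPM) and mesenchymal markers (0 to 2.94 against 0.213 to 21.5 CPM) were also lower in 8 of 8. DATP markers were lower in 4 of 8, which include both 2 weeks RFP libraries and 4 days RFP replicate 2 (958 against 2164 CPM), the libraries with high Ndrg1. The part of these shifts in the values of the members was not tested.

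**Figure D5:**
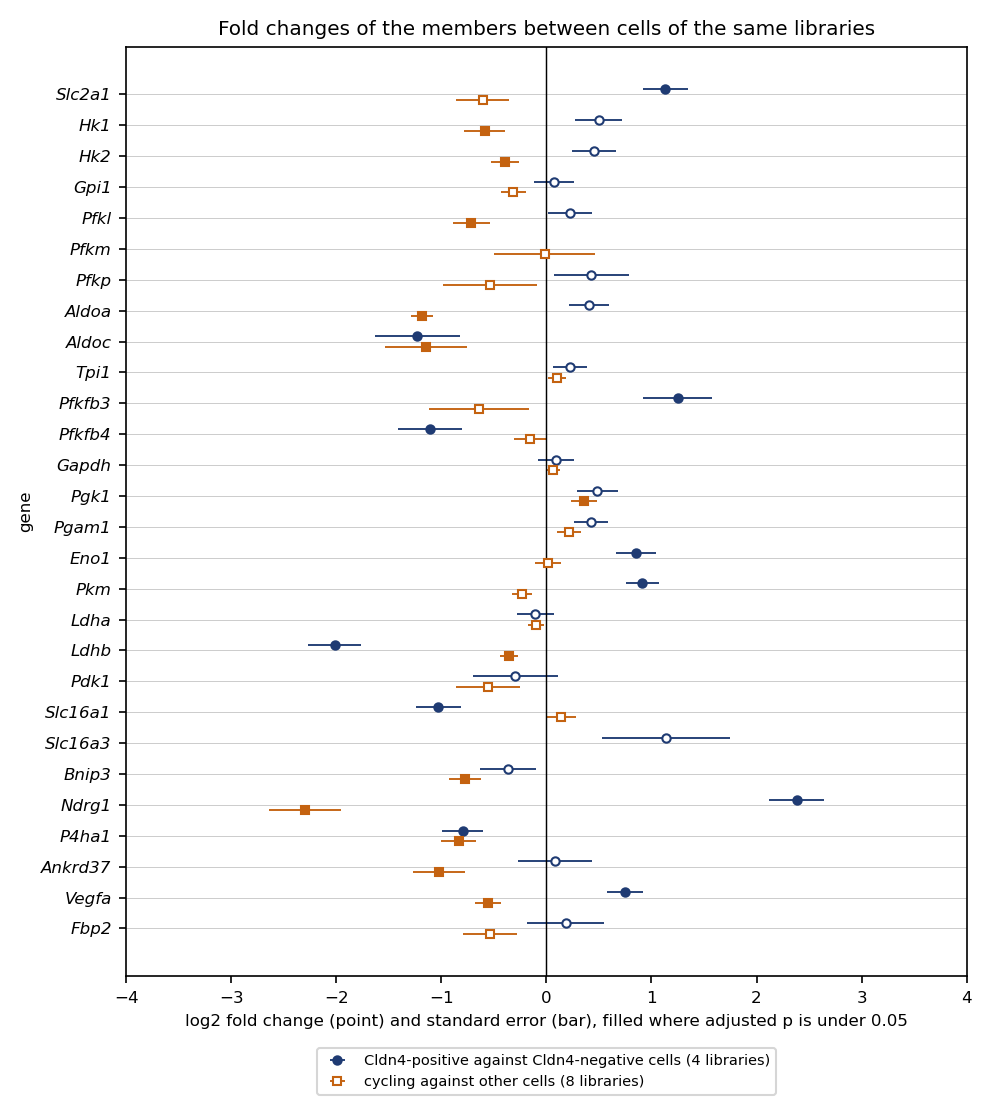
Estimated log2 fold change of the members (points) with standard error (bars) between cells of the same libraries: Cldn4-positive against Cldn4-negative cells (blue circles, 4 libraries) and cycling against other cells (orange squares, 8 libraries), filled where the adjusted p was under 0.05. Ndrg1 and Vegfa are filled right of 0 in the first and left of it in the second, Ldhb, Aldoc and P4ha1 are filled left of 0 in both.

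A wider list of 69 other genes of the pathway was read beside the members. In 2 weeks RFP against Confetti edgeR called 0 of the 62 tested, with 7 higher and 4 lower at an unadjusted p under 0.05, where all genes stood at 15.9% and 12.5%. Epas1, which encodes HIF-2α and is abundant in AT2 cells, was at 64.2 ± 15.7 CPM against 183 ± 2.47 CPM (SD, n = 2; log2 fold change of -1.51 ± 0.27, SE; adjusted p = 0.0527 in edgeR, 2.96e-05 to 0.255 over the alternatives). Its 4 RFP libraries stood at 53.0 to 98.4 CPM and its 4 YFP libraries at 157 to 212 CPM. Slc16a7, another lactate and pyruvate transporter, was at 10.4 ± 6.98 against 46.0 ± 1.46 CPM (log2 fold change of -2.14 ± 0.61). Hilpda, a lipid droplet protein that HIF induces, was at 83.2 ± 3.23 against 18.8 ± 2.64 CPM (2.15 ± 1.04), and the HIF target Anxa2 at 1134 and 1155 CPM against 341 and 434 CPM (1.57 ± 0.37). Mif (0.91 ± 0.35) and Fam162a (0.90 ± 0.38) completed the 6 with the largest estimates among genes of at least 20 CPM on average.

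In Cldn4-positive cells 9 of the 49 tested were higher and 9 lower in edgeR, with 6 of the 15 other HIF targets higher and 1 lower, beside 9.6% of all genes higher and 11% lower. Hilpda averaged 229 against 48.9 CPM (log2 fold change of 2.29 ± 0.20, SE; adjusted p = 8.35e-05 in edgeR) and Anxa2 1537 against 726 CPM (1.07 ± 0.15), both higher in 4 of 4 libraries. Mif averaged 577 against 410.1 CPM (0.49 ± 0.14; adjusted p = 0.0292 in edgeR, up to 0.222 over the alternatives), higher in 4 of 4, and Fam162a 166 against 172 CPM (-0.075 ± 0.19), which did not pass. Epas1 averaged 29.8 against 103 CPM (-2.10 ± 0.28) and Slc16a7 2.74 against 22.5 CPM (-3.11 ± 0.46; 0 to 3 UMIs per library in Cldn4-positive cells), both lower in 4 of 4. In cycling cells 2 of 53 were higher and 14 lower, with 6 of 15 other HIF targets lower and 0 higher, beside 10.3% of all genes higher and 12.5% lower. Hilpda averaged 12.3 against 50.9 CPM (-1.80 ± 0.24), lower in 8 of 8 libraries, and Epas1 86.9 against 150.4 CPM (-0.78 ± 0.12), lower in 7 of 8. Slc16a7 averaged 23.3 against 33.7 CPM (-0.53 ± 0.17; adjusted p = 0.0263 in edgeR, up to 0.0924 over the alternatives), lower in 8 of 8. Anxa2 (536 against 641 CPM), Mif (365 against 369.6 CPM) and Fam162a (138 against 154 CPM) did not pass.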

How the data were processed

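The deposited matrices hold UMI counts per gene and cell, which the authors made with Cell Ranger 3.1.0 (5.0.1 per the file headers) against GRCm38. Cells with at least 1000 genes, at most 50000 UMIs, at most 15% mitochondrial UMIs and no Ptprc UMI were kept, and UMIs were summed per library without mitochondrial genes. Library depth, given in the report, sets the precision of low members. Sums were tested with edgeR 4.0.16 (R 4.3.3; quasi-likelihood test, TMM, filterByExpr, Benjamini-Hochberg over all genes) over 6 groups and 10 libraries, over colour and time in 8 libraries, and between cell states within libraries. The procedure was tested on simulated data with less spread between libraries than the fits found here. That test does not show how it performs at the spread of these data. Alternatives were other scalings, DESeq2 1.42.0, other cell filters (Scrublet doublet scores from scanpy 1.11.5 among them), thinning to 2000 UMIs and each library left out. No preparation batch is given in the labels, so none was fitted. Chemistry is named differently by the labels and the methods. Members and lists were chosen with earlier results of these data known. Named genes are all members and, of the wider list, the 6 with the largest fold change against Confetti among those of at least 20 CPM. Coordinates are from GENCODE M21, promoters from RefSeq. One item is not reported here.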

Additional observations from a re-analysis of the deposited data

How the results depend on the processing

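For 2 weeks RFP against Confetti the count of members called, 0 in edgeR, became 11 with DESeq2 (12% of all genes), and 1 each (shares of all genes in parentheses) with library totals only (0.956%), with no filter on low counts (1.01%), with cells without a Pecam1, Col1a1 or Foxj1 UMI (3.25%) and with fewer than 2 immune UMIs (2.36%; chosen after seeing the data), where the 1 was Pgk1. Leaving out each library in turn gave 0 to 4, with 4 (Eno1, Ndrg1, Pgk1 and Slc2a1) without either 4 days RFP library (4.34% of all genes without replicate 1, 4.49% without replicate 2). It was 0 to 1 for 4 days RFP against Confetti and for RFP against YFP at 4 days (1, Ndrg1, without 4 days RFP replicate 1, beside 0.224% and 0.0677% of all genes). For 2 weeks against 4 days in RFP DESeq2 gave 1 (0.613% of all genes). For RFP against YFP over both times DESeq2 gave 2 (5.22% of all genes) and leaving out libraries gave 0 to 4, with 4 (Bnip3, Ldhb, Ndrg1 and Slc2a1, beside 4.6% of all genes) without 4 days RFP replicate 1. Cldn4-positive against negative cells gave 17 of 31 members with all UMIs of the same cells (30.2% of all genes). With a library left out they gave 2 to 11 (7.77% to 21.2% of all genes), 2 without 2 weeks RFP replicate 1 and 6 without replicate 2. Cycling against other cells gave 20 of 31 with all UMIs of the same cells (34.5% of all genes) and 22 of 31 with state and sums from all UMIs (37% of all genes). With a library left out they gave 9 to 13 (19.4% to 22.5% of all genes).

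The replicate block left 0 members called in each Red2Kras comparison and the Ldha share difference at 16.3 points (exact permutation p = 0.125, the smallest that 4 pairs allow), 1.40 for Hk2 and 0.826 for Pfkp. Correlations of same-numbered libraries were 0.453 and 0.567 between the colours of 1 time and 0.0891 to 0.480 across times. No label ties a number to mice. By the methods both colours were isolated at each time. Xist was at 0.240 to 0.433 CPM in both colours of replicate 2 and at 105 to 590 CPM in both colours of replicate 1. Same-numbered libraries of 1 time may therefore share lungs. The main fits and the permutation test of 4 against 4 libraries do not use such pairing. With a replicate block within each time (1 term per time and number, chosen after seeing the data) edgeR called 381 genes (2.72%) over both times and 0 of 32 members, of which Slc2a1 had the smallest adjusted p (0.0573), and 14 members had an unadjusted p under 0.05, beside 26.6% of all genes. The Ldha share was higher in RFP in 4 of 4 such pairs.

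The Hk2 share difference became -0.0136 points with all cells past the quality filter and ranged from -4.41 to 6.12 with a library left out (negative without 4 days RFP replicate 1, 4 days YFP replicate 2 or 2 weeks YFP replicate 2), and the Pfkp difference became -5.02 and ranged from -5.90 (without 4 days RFP replicate 2) to 4.20. The Ldha difference ranged from 12.2 to 22.6. Other estimates that turned sign were Ndrg1 for RFP against YFP at 4 days (-0.053 without 4 days RFP replicate 2, up to 4.88 without replicate 1), Fbp2 in cycling cells (0.11 with state and sums from all UMIs), Fam162a in Cldn4-positive cells (0.15 with state and sums from all UMIs, and with a library left out from -0.29 without 2 weeks RFP replicate 1 to 0.085 without 4 days RFP replicate 2), Mif in cycling cells (0.056 with all UMIs of the same cells, 0.061 with state and sums from all UMIs, and with a library left out from -0.086 without 2 weeks YFP replicate 1 to 0.011 without Confetti YFP) and Anxa2 in cycling cells (0.053 with state and sums from all UMIs). The causes were not tested. At an unadjusted p under 0.05 over both times, library totals only gave 10 members higher (12.5% of all genes) and 2 lower (4.9%), with the median of all genes at 0.076 against -0.038, the within-time block 10 higher (13.1%) and 4 lower (13.5%), and all cells past the quality filter 4 higher (6.81%) and 0 lower (4.47%). With library totals only, the median of all genes for 2 weeks YFP against Confetti was -0.22. Members with few UMIs (Eno2, Egln3, Car9, Adm, Fbp1, Slc16a3) are limited by depth.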
